A study of Canis lupus familiaris with 34 samples.

Results

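The enzymes that turn arachidonic acid into leukotrienes and prostaglandins were examined in primary cutaneous mast cell tumours (MCTs) of dogs. The set held 7 genes, ALOX5, ALOX5AP, LTC4S, LTA4H, PTGS1, PTGS2 and HPGDS. Each was represented by the array's Transcript cluster with that platform symbol, and by the cluster with the highest mean where there were several. A Transcript cluster is the group of probes that the array design assigns to 1 gene. Of the 7 genes, 6 had a cluster among the 32391 in the table, and each of these had 1. No cluster carried the symbol ALOX5AP in the annotation used here, so the 5-lipoxygenase activating protein was not analysed here.

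Leukotrienes and prostaglandins are lipid mediators made from arachidonic acid that phospholipases release from membranes. In the leukotriene branch, 5-lipoxygenase (ALOX5) makes leukotriene A4, which LTC4S conjugates to glutathione and LTA4H hydrolyses to leukotriene B4. In the prostaglandin branch, the cyclooxygenases PTGS1 (constitutive in many cells) and PTGS2 (inducible) make prostaglandin H2, which HPGDS converts to prostaglandin D2. Activated mast cells are known for releasing cysteinyl leukotrienes and prostaglandin D2 along with histamine and proteases.

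The study compared 18 metastasising (M) MCTs with 16 non-metastasising (NM) MCTs, each from a different dog, to look for expression linked to spread of the tumour. RNA came from whole formalin-fixed, paraffin-embedded biopsies taken at diagnosis. The M tumours came from 9 female and 9 male dogs aged 2 to 15 years (median 8), and the NM tumours from 5 female and 11 male dogs aged 3 to 11 years (median 5). There were 7 M and 3 NM tumours from Labrador Retrievers, 3 and 3 from cross-breed dogs, 1 and 3 from Golden Retrievers, 1 and 3 from Boxers, 1 and 1 from Staffordshire Bull Terriers and 1 and 1 from Whippets, and 6 further breeds gave 1 tumour each. Breed is given by the labels, and sex and age by the study's description of the dogs. That description lists intact and neutered dogs of each sex in both groups. The study also states that the NM specimens were on average older than the M ones, and that specimen age did not correlate with RNA integrity. Specimen age and neutering were not covariates here.

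All values are log2 signals after Robust Multichip Analysis, so a difference of 1 is a doubling of signal. The median of an array lay between 1.79 and 1.91, and the correlation between any pair of arrays lay between 0.636 and 0.954. The median of all values was 1.84, and 19246 clusters that exceeded it in 30% or more of either group's tumours were tested. Of the mast cell markers with a tested cluster, KIT averaged 2.90 (range 1.73 to 5.46), CPA3 4.06 (1.71 to 8.46) and CMA1 3.91 (1.88 to 7.61), so the defining markers were measured but at very unequal levels between biopsies. A mast cell score averaged the z-scores of 9 such genes in each tumour, namely KIT, MS4A2, FCER1A, HDC, CPA3, CMA1, SLC18A2, GATA2 and IL1RL1. The score averaged -0.003 in M MCTs and 0.003 in NM MCTs (two-sided permutation test, p = 0.987), whereas a keratinocyte score of 14 genes averaged -0.365 in M MCTs and 0.411 in NM MCTs (p = 0.0123). The keratinocyte list includes genes, such as KRT1, KRT5 and KRT10, that the study reported as lower in M MCTs from these same tumours. The p of the keratinocyte score is therefore not an independent test of that difference. In whole biopsies, fewer cells of a type and less RNA per cell cannot be told apart.

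In the leukotriene branch, all 3 measured enzymes had nearly the same average level in M and NM MCTs. ALOX5, the enzyme that opens the branch, had a lowest, median and highest value of 1.45, 1.71 and 3.04 in M MCTs, against 1.44, 1.73 and 3.70 in NM MCTs. It was above 1.84 in 7 of 18 M and 4 of 16 NM tumours, so for most biopsies the signal lay in the lower part of the array's range. The ranges overlapped almost completely, and 3 tumours stood above all others, NM replicate 12 (a Labrador Retriever, 3.70), M replicate 2 (a cross-breed dog, 3.04) and M replicate 7 (a Golden Retriever, 2.78).

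LTC4S, the synthase of leukotriene C4, was above 1.84 in all 34 tumours. Its lowest, median and highest values were 3.36, 5.41 and 6.28 in M MCTs, against 3.47, 5.19 and 7.70 in NM MCTs. The groups overlapped throughout, and the 2 highest tumours were both NM, replicate 12 at 7.70 and replicate 16 (a Whippet) at 6.94. The lowest was also from a Whippet, M replicate 18 at 3.36. LTA4H, the hydrolase that makes leukotriene B4, varied far less, with 1.33, 1.79 and 2.27 in M MCTs against 1.44, 1.72 and 2.39 in NM MCTs. Its signal was low, above 1.84 in 8 of 18 M and 6 of 16 NM tumours and above the 75th percentile of all values in 0. From lowest to highest tumour the signal of LTC4S spanned 20.3-fold, that of ALOX5 4.81-fold and that of LTA4H 2.08-fold.

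**Figure D1:**
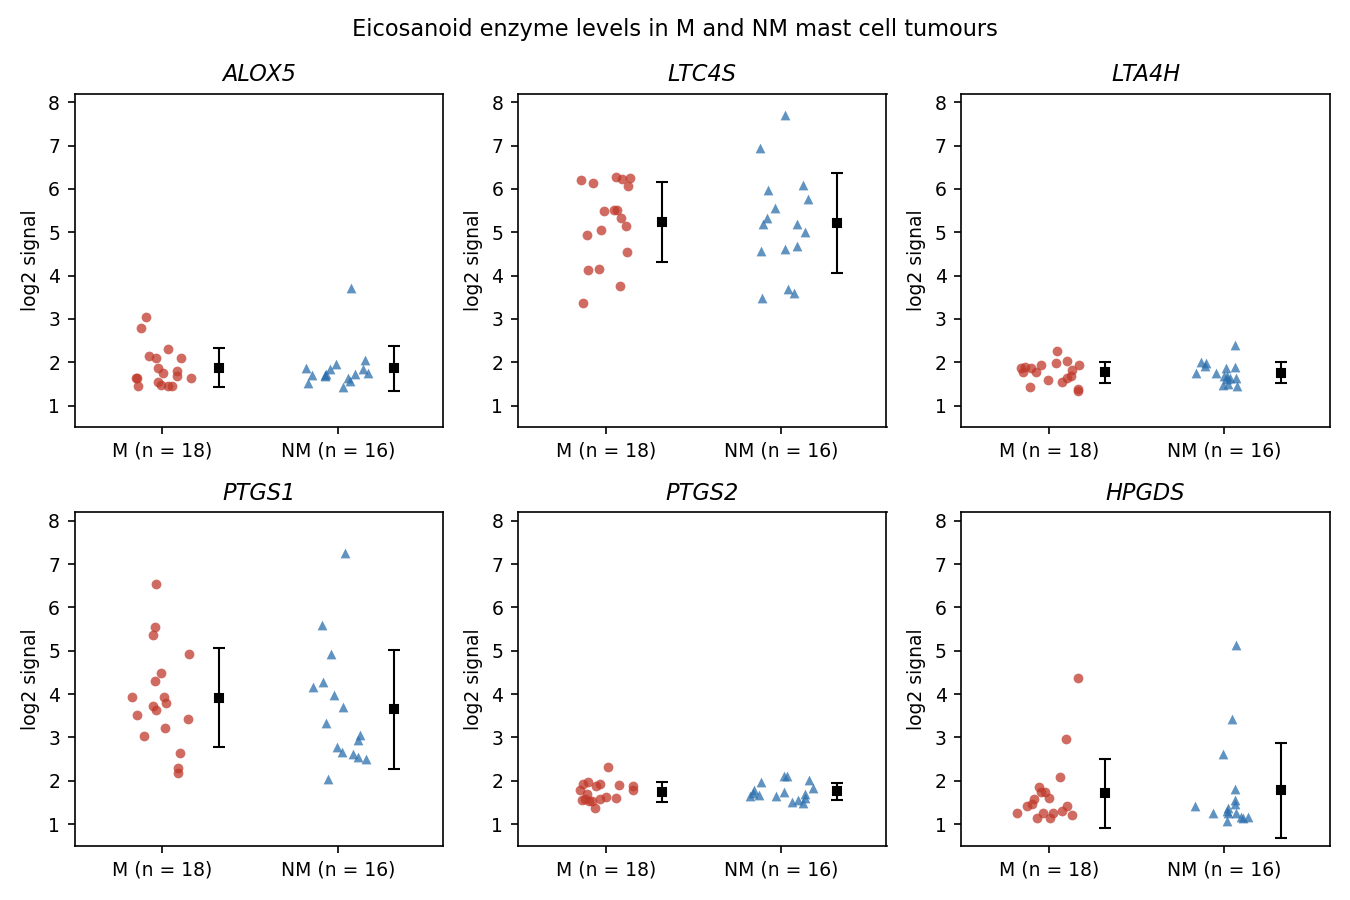
Log2 signal (y axis) of the 6 measured enzymes in each M (red circles, left) and NM (blue triangles, right) tumour, with the group mean and SD as black squares and bars beside the points. M and NM overlap in every panel, PTGS1 and LTC4S spread over a wide range, and HPGDS lies near 1.4 in most tumours with 5 tumours above 2.6.

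In the prostaglandin branch, PTGS1 had the widest spread of the 6 genes and PTGS2 the narrowest. PTGS1, the constitutive cyclooxygenase, had a lowest, median and highest value of 2.17, 3.75 and 6.53 in M MCTs, against 2.03, 3.19 and 7.26 in NM MCTs, a 37.6-fold span over all tumours. Its standard deviation of 1.24 exceeded that of 95.7% of the tested clusters. The 4 highest tumours were NM replicate 12, M replicate 2, NM replicate 6 (a cross-breed dog) and M replicate 7, so both groups held tumours at the top of the range.

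PTGS2, the inducible cyclooxygenase, had values of 1.36, 1.73 and 2.31 in M MCTs against 1.48, 1.70 and 2.12 in NM MCTs, and was above 1.84 in 7 M and 4 NM tumours. Its standard deviation of 0.212 exceeded that of only 14.6% of the tested clusters. HPGDS, the haematopoietic prostaglandin D synthase, did not pass the filter, being above 1.84 in 4 of 18 M and 3 of 16 NM tumours. It had 1.13, 1.45 and 4.38 in M MCTs, against 1.08, 1.34 and 5.13 in NM MCTs. The HPGDS values fell into 29 tumours at or below 2.09 and 5 tumours between 2.62 and 5.13. Those 5 were 2 M tumours (replicate 16, a Labrador Retriever, at 4.38 and replicate 7 at 2.95) and 3 NM tumours (replicate 6 at 5.13, replicate 12 at 3.43 and replicate 14, a Miniature Schnauzer, at 2.62).

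None of the 5 tested enzymes passed the test between M and NM MCTs. PTGS1 averaged 3.91 ± 1.14 in M MCTs and 3.65 ± 1.37 in NM MCTs (SD, n = 18 and 16), a log2 difference of 0.27 (SE 0.42, 95% interval -0.58 to 1.11, limma p = 0.527). LTC4S averaged 5.22 ± 0.92 in M MCTs and 5.21 ± 1.16 in NM MCTs, a difference of 0.01 with an interval of -0.69 to 0.72. ALOX5 averaged 1.88 ± 0.46 in M MCTs and 1.86 ± 0.52 in NM MCTs, a difference of 0.02 (interval -0.31 to 0.35). The intervals were narrower for LTA4H, from -0.17 to 0.17 around 0.002, and for PTGS2, from -0.17 to 0.14 around -0.01. After Benjamini-Hochberg adjustment over the 19246 clusters, limma gave an adjusted p of at least 0.999 for each of the 5.

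No cluster of the table passed an adjusted p of 0.05 in this comparison (0% of those tested, smallest limma adjusted p 0.558), and 797 had an unadjusted p under 0.05, which is 4.14%. None of the 5 enzymes was among those 797. HPGDS averaged 1.71 ± 0.80 in M MCTs and 1.77 ± 1.09 in NM MCTs, a difference of -0.06 (two-sided permutation test, p = 0.842).

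**Figure D2:**
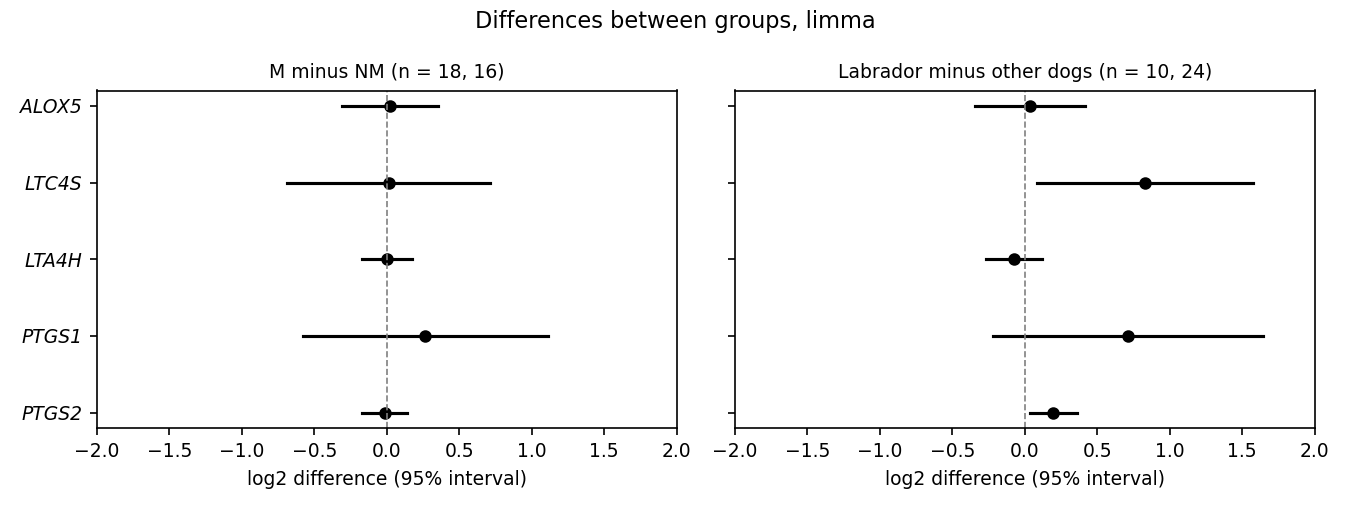
Log2 difference (points) with its 95% interval (lines) for the 5 tested enzymes, as M minus NM on the left and Labrador Retriever minus other dogs, with the metastasis group as a covariate, on the right. Every M minus NM interval includes 0, and on the right the intervals of LTC4S and PTGS2 lie above 0 before any adjustment for the number of clusters.

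The 6 enzymes differed in how closely they followed the mast cell score, which contains none of them. All correlations below are over the 34 tumours, describe these biopsies, and share 1 RNA extract and 1 array per point. PTGS1 followed the score most closely, with Pearson r = 0.898 and Spearman rho = 0.890. The relation was present in both groups (r = 0.819 in M MCTs and 0.967 in NM MCTs) and was 0.871 without the 2 tumours farthest from the median score. Of the 19246 tested clusters, 8 had a higher r with the score, and 6 of these were genes of the score. A line fitted to the score accounted for 80.7% of the variance of PTGS1, with a slope of 1.21 log2 units per unit of score (SE 0.104).

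ALOX5 had r = 0.695 with the score but rho = 0.412, and without the 2 farthest tumours r was 0.378, so the relation rested largely on the few tumours with the highest scores. NM replicate 12 had the highest score of all (2.77) and the highest ALOX5, LTC4S and PTGS1. Without it, r with the score was 0.540 for ALOX5, 0.374 for LTC4S and 0.863 for PTGS1, against 0.695, 0.513 and 0.898 with it. LTC4S was related to the score in NM MCTs (r = 0.699) more than in M MCTs (r = 0.240), a difference that was not tested.

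The score was related to HPGDS as well (rho = 0.662 over the 34 tumours). Without the 2 tumours farthest from the median score, r was 0.701. Because 5 tumours lay apart from the rest in HPGDS, the r over all tumours is not given. The same limit holds for the 0.701. The 2 tumours left out of it, NM replicate 12 and M replicate 7, were chosen by score. The 2 tumours highest in HPGDS, NM replicate 6 and M replicate 16, were still included. Over the other 29 tumours, a division made on HPGDS itself after the values were seen, r was 0.504. The 5 high tumours had scores between 0.823 and 2.77, within the top 6 of the 34, and the 1 other tumour of those 6, M replicate 2 (score 1.14), had HPGDS at 2.09. LTA4H had r = 0.348 and PTGS2 r = 0.040 with the score. Of the 5 tested enzymes, 3 had r over 0.5 with the score (PTGS1, ALOX5 and LTC4S), against 4.84% of all tested clusters.

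**Figure D3:**
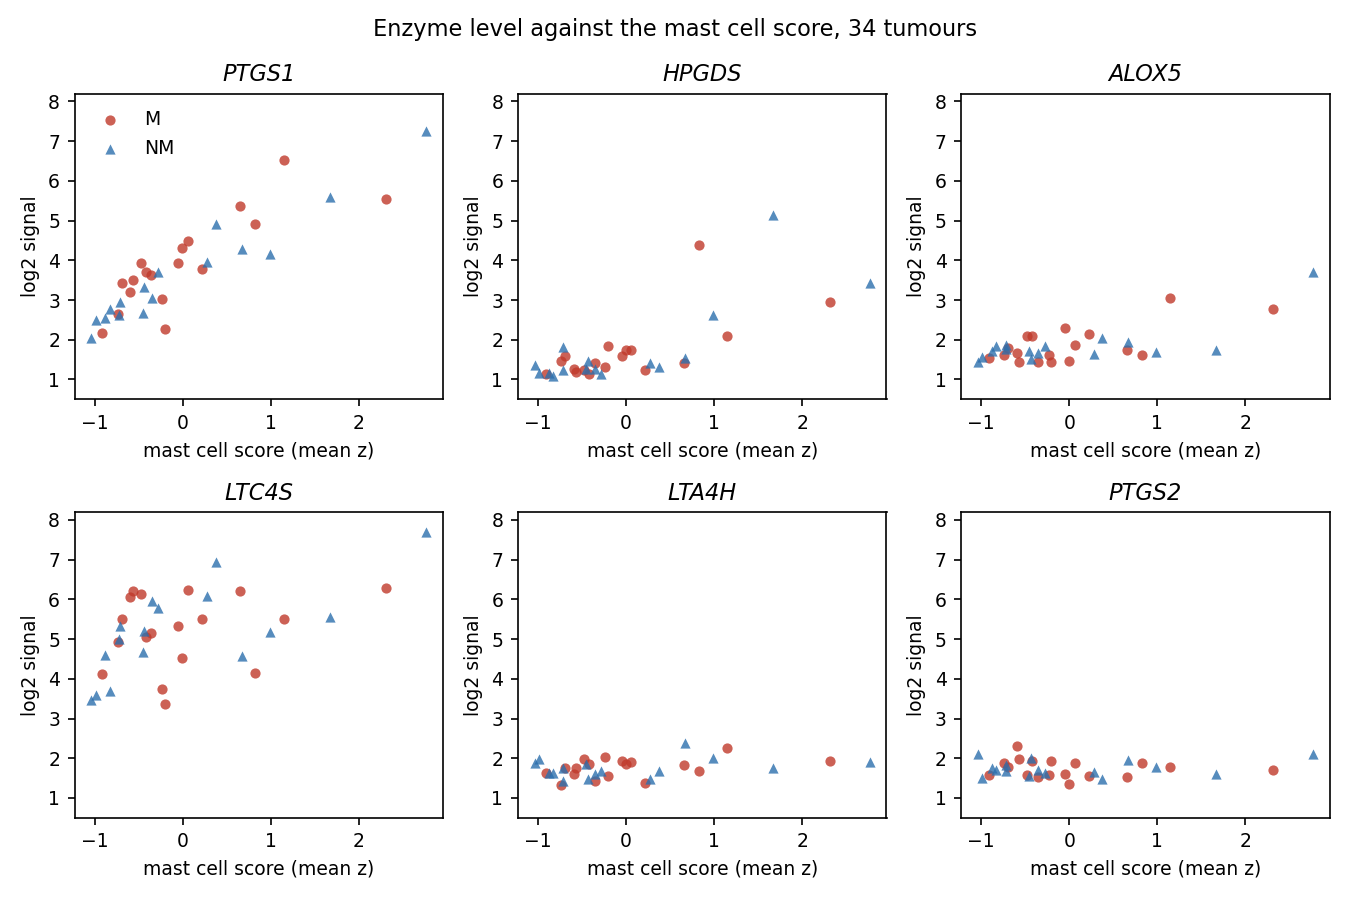
Log2 signal (y axis) of each enzyme against the mast cell score (x axis, mean z-score of 9 mast cell genes) in M (red circles) and NM (blue triangles) tumours. PTGS1 rises along the whole range of the score (r = 0.898), HPGDS is raised in 5 tumours with scores of 0.823 or more, and PTGS2 is flat (r = 0.040).

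The quality of an array, taken as its mean correlation with the other arrays, moved with some of the same values. Its r was 0.468 with PTGS1, 0.451 with LTC4S and -0.367 with PTGS2, and 0.368 with the mast cell score itself. The part of array quality in these relations was not tested. The keratinocyte score, whose average was lower in M MCTs, had r between -0.055 and 0.136 with ALOX5, LTC4S, HPGDS, PTGS1 and PTGS2, and r = 0.362 with LTA4H.

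Among the enzymes themselves, ALOX5, LTC4S and LTA4H each had their highest r with PTGS1, and PTGS2 did not. HPGDS, given by rho because of its 5 high tumours, also had its highest value with PTGS1 (rho = 0.571). Over the 29 tumours without those 5, rho with PTGS1 was 0.345. PTGS1 had r = 0.729 with ALOX5, and 0.473 without the 2 tumours farthest from the median of ALOX5. With LTC4S it had r = 0.653, and 0.528 without the 2 tumours farthest from the median of LTC4S. For LTA4H, r was 0.397 with PTGS1 and nearly the same, 0.379, with ALOX5. ALOX5 and LTC4S had r = 0.549 with each other. PTGS2 had an r of at most 0.143 with any other measured enzyme. That value, with ALOX5, was -0.152 without the 2 tumours farthest from the median of ALOX5.

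The 3 genes whose pattern was most like that of each enzyme over the 34 tumours were then listed. For PTGS1 they were CMA1, the mast cell chymase (r = 0.881), LCP2, an adaptor in signalling from the IgE receptor (0.876, and 9th for ALOX5 at 0.809), and NDST2, which sulphates heparin (0.872). For ALOX5 they were the tyrosine phosphatase PTPN9 (0.868), the shared cytokine receptor chain CSF2RB (0.847) and ANKRD13A (0.838). For LTC4S they were the transcription factor RUNX3 (0.819), the potassium channel KCNC2 (0.768) and the adaptor LAT (0.742). PTGDR2, a receptor for prostaglandin D2, came 7th for LTC4S (0.713), and is named after its value was seen.

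For HPGDS the closest were RGS10, a regulator of G protein signalling (0.846), LOC102155828 (0.798) and FCER1A, the ligand-binding chain of the IgE receptor (0.793). These values include the 5 high tumours, whose part in them was not tested. LTA4H was most like TRIR (0.826), the adaptor YWHAZ (0.804) and the splicing factor U2AF2 (0.797), and 12.4% of all tested clusters had r over 0.5 with it. Of a list of 10 fibroblast and matrix genes, 9 had r over 0.5 with LTA4H (median r = 0.620), against a median r of 0.281 for the 9 mast cell genes. That list is named after its values were seen. Other lists also lay above the mast cell genes, such as endothelium (median r = 0.447) and keratinocytes (0.385). Some lay below them, such as T and NK cells (-0.207). PTGS2 stood apart, since only 9 clusters (0.0468%) had r over 0.5 with it, led by the lymphocyte receptor SLAMF1 (0.572), GIMAP6 (0.551) and TM6SF2 (0.539).

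Breed was tested over the 28 tumours of the 6 breeds with more than 1 tumour, with the metastasis group as a covariate. LTA4H had the smallest p of the 5 tested enzymes (limma moderated F-test, p = 0.0296, adjusted p = 0.795), and 1188 clusters, or 6.17%, had an unadjusted p under 0.05. The median of LTA4H was 1.91 in Golden Retrievers, 1.84 in cross-breed dogs, 1.72 in Labrador Retrievers, 1.61 in Whippets, 1.52 in Boxers and 1.43 in Staffordshire Bull Terriers. Golden Retriever tumours ranged from 1.86 to 2.39, and each pair of neighbouring breeds in this order overlapped, down to the 2 Staffordshire Bull Terriers (1.39 and 1.47), which lay within the Boxers' range (1.33 to 1.99). The p was 0.0740 without NM replicate 9, the Golden Retriever at 2.39, 0.0674 without M replicate 17 and 0.0514 without NM replicate 15, the 2 Staffordshire Bull Terriers. The other 4 enzymes had p between 0.441 and 0.882. For PTGS1, p was 0.482, against 0.0329 (adjusted p = 0.857) with the mast cell score as a covariate and 0.927 with array quality.

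Labrador Retriever tumours were set against all others, 10 against 24. LTC4S had a lowest, median and highest value of 4.15, 5.92 and 7.70 in Labrador Retrievers, against 3.36, 5.09 and 6.94 in other dogs. The ranges overlapped, and the fitted difference was 0.83 (SE 0.37, limma p = 0.0300, adjusted p = 0.930). Without NM replicate 12 the difference was 0.57 and p = 0.131. PTGS2 had 1.52, 1.91 and 2.31 in Labrador Retrievers, against 1.36, 1.68 and 2.11 in other dogs, a fitted difference of 0.20 (SE 0.08, limma p = 0.0195, adjusted p = 0.930). It was 0.15 without M replicate 15 (p = 0.0585) and 0.17 without NM replicate 12 (p = 0.0559). These 2 of 5 enzymes, both higher in Labrador Retrievers, compare with 4.1% of all clusters at an unadjusted p under 0.05 (2.42% higher and 1.69% lower) and with 0% at an adjusted one. PTGS1 differed by 0.71 (p = 0.128), ALOX5 by 0.04 (p = 0.837) and LTA4H by -0.07 (p = 0.445). With the mast cell score as a covariate the PTGS1 difference was 0.42 with an unadjusted limma p of 0.0381 (adjusted p = 0.702). In that fit 3 of the 5 enzymes were under 0.05, and so were 1299 of the 19246 clusters, against 790 without the score. In the fit without that covariate, the PTGS1 difference was 0.90 (limma p = 0.0417) without M replicate 2. It was 0.28 (p = 0.525) without NM replicate 12.

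Within breeds, M and NM MCTs could be compared in Labrador Retrievers and in cross-breed dogs. In Labrador Retrievers, ALOX5 had a lowest, median and highest value of 1.45, 1.68 and 2.10 in 7 M tumours, against 1.52, 1.83 and 3.70 in 3 NM tumours (exact permutation test, two-sided, p = 0.317). PTGS1 had 3.20, 3.72 and 5.36 in these M tumours, against 3.32, 3.71 and 7.26 in the NM tumours (exact p = 0.5). The groups overlapped for every enzyme. The difference of M minus NM between Labrador Retrievers and other dogs was -0.90 for ALOX5 (SE 0.36, limma p = 0.0184, adjusted p at least 0.999), and 282 clusters (1.47%) had an unadjusted p under 0.05, of which 0.634% of all tested were positive and 0.831% negative. Without NM replicate 12 that value was -0.22 (p = 0.488). For the other 4 enzymes p was at least 0.283.

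In cross-breed dogs the values of ALOX5 were 3.04, 2.29 and 2.10 in M tumours, against 1.71, 1.73 and 1.76 in NM tumours, and did not overlap. LTA4H did not overlap either, with 2.27, 1.98 and 1.93 in M tumours against 1.63, 1.75 and 1.75 in NM tumours. For both, the exact permutation p was 0.1, the smallest that 3 against 3 tumours allow. Over all tested clusters, 818 (4.25%) had M above NM with no overlap in these 6 dogs and 730 (3.79%) had M below NM. LTC4S, HPGDS, PTGS1 and PTGS2 overlapped. The pair of Whippets, 1 tumour of each group, differed most in PTGS1 (2.28 in the M tumour and 4.91 in the NM tumour) and LTC4S (3.36 and 6.94). Their mast cell scores were -0.204 for the M tumour and 0.376 for the NM tumour, and their arrays' mean correlations with the others were 0.795 and 0.893, among the lowest and the highest of the series. The part of these in the pair's difference was not tested.

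The other genes of the eicosanoid pathway were listed by role, 68 genes in all, of which 53 had a cluster and 47 were tested. No gene of these lists passed an adjusted p of 0.05 between M and NM MCTs, and at an unadjusted p under 0.05 none was higher and 2 were lower, where 1.34% of all clusters were higher and 2.8% lower. The median difference over the 47 genes was -0.05, beside -0.02 over all tested clusters, and 16 of the 47 were positive, where 43.9% of all tested clusters were.

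The 2 lower genes were ALOX12B, an epidermal lipoxygenase of the skin barrier, and PTGDS, the lipocalin-type prostaglandin D synthase. ALOX12B had a lowest, median and highest value of 1.76, 2.13 and 2.60 in M MCTs, against 1.88, 2.35 and 2.87 in NM MCTs, a difference of -0.27 (SE 0.09, limma p = 0.0046, adjusted p at least 0.999). The groups overlapped, and ALOX12B had r = 0.687 with the keratinocyte score. With that score as a covariate the difference was -0.13 (p = 0.133). PTGDS had 2.04, 2.62 and 3.28 in M MCTs, against 2.39, 2.77 and 5.30 in NM MCTs, a difference of -0.48 (SE 0.22, p = 0.0342), or -0.38 with the keratinocyte score (p = 0.123). Its p was also above 0.05 without NM replicate 1 (0.0708), NM replicate 8 (0.0702) or M replicate 7 (0.0522), and with array weights (-0.28, p = 0.132), age as a covariate (-0.34, p = 0.171) or breed as a block (-0.39, p = 0.189).

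Of the 16 tested genes that release arachidonate or return it to lipids, 8 were higher and 8 lower in M MCTs on average and none had an unadjusted p under 0.05. The smallest p-values were those of the monoglyceride lipase MGLL (-0.33, p = 0.166), the diacylglycerol lipase DAGLA (0.09, p = 0.170) and ACSL4, which activates arachidonate as its CoA ester (0.38, p = 0.204). The 6 tested prostanoid receptors had differences between -0.13 and -0.07, all on the side of most tested clusters, and none passed, the smallest p being that of PTGER2 (0.184). The only tested leukotriene receptor was OXER1 (0.13, p = 0.348).

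ALOX15, the 15-lipoxygenase, was the 1 cluster of the 19246 (0.0052%) that passed an adjusted p of 0.05 for breed (limma moderated F-test, p = 1.42e-06, adjusted p = 0.0273). That count depended on the tumours and covariates used: it was 0 without the group covariate (adjusted p of ALOX15 0.0618) or with the mast cell score (0.0529), and lay between 0 and 64 clusters with 1 tumour left out, with 64 without NM replicate 16 and 30 without M replicate 17. Both Staffordshire Bull Terrier tumours stood above every other tumour, at 5.71 in the M tumour and 4.12 in the NM tumour, while the other 32 lay between 1.61 and 3.80. The medians of the other breeds tested were 2.45 in cross-breed dogs, 2.22 in Labrador Retrievers, 2.02 in Whippets, 1.90 in Golden Retrievers and 1.83 in Boxers. The call rests on 2 dogs of the breed, and without M replicate 17, the higher of them, p was 0.000726 and the adjusted p 0.197. The adjusted p also rose above 0.05, to between 0.0519 and 0.0592, without any 1 of M replicates 3, 7, 11 and 14 and NM replicate 3. In cross-breed dogs ALOX15 was 3.80, 3.05 and 2.73 in M tumours, against 2.17, 2.15 and 2.10 in NM tumours. Over all tumours M minus NM of ALOX15 was 0.42 (limma p = 0.129), and 0.24 without M replicate 17. Its unadjusted p was under 0.05 with breed as a block (0.43, p = 0.0305), with array quality as a covariate (0.52, p = 0.0455) and without NM replicate 15, the other Staffordshire Bull Terrier (0.56, p = 0.0354), and the adjusted p was at least 0.998 in each. The difference was smaller with age as a covariate (0.23, limma p = 0.454) and with the replicate number as a block (0.26, p = 0.281). It was also smaller with the keratinocyte score (0.37, p = 0.233) and with sex (0.39, p = 0.177).

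ALOX15 is also a gene of eosinophils, which often infiltrate canine MCTs. The other eosinophil markers with a cluster were CCR3 (r = 0.313 with ALOX15 over the 34 tumours), ADGRE1 (0.030), EPX (-0.051) and IL5RA (-0.120), the last 2 below the level filter. The part of eosinophils in the ALOX15 values was not tested. ALOX15 had r = 0.121 with the mast cell score.

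Several further pathway genes, named here after their values were seen, followed the mast cell score. The score had r over 0.5 with 7 of the 47 tested genes (14.9%), against 4.84% of all tested clusters, and the median r was 0.106 over the 47 genes and -0.036 over all clusters. HPGD, the dehydrogenase that inactivates prostaglandins, had r = 0.951 (rho 0.935), with r = 0.947 in M MCTs and 0.956 in NM MCTs, and 0.926 without the 2 farthest tumours. The 4 tested clusters with a higher r were all genes of the score. HPGD had a lowest, median and highest value of 1.35, 2.26 and 5.66 in M MCTs, against 1.44, 2.07 and 5.81 in NM MCTs, so the groups overlapped and the difference was -0.04 (SE 0.43, p = 0.921).

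The other 6 were LPCAT2 (r = 0.828), ACSL4 (0.813), MBOAT7 (0.723), COTL1 (0.680), ABCC4 (0.677) and PTGR1 (0.504). Without the 2 tumours farthest from the median score, these were 0.671, 0.716, 0.566, 0.652, 0.529 and 0.515, in the same order. LPCAT2 is a lysophospholipid acyltransferase that also makes platelet-activating factor, and MBOAT7 is an arachidonate acyltransferase. COTL1 is a binding partner of 5-lipoxygenase, ABCC4 is a prostaglandin exporter, and PTGR1 acts on leukotriene B4 and prostaglandins. PTGDS, the non-haematopoietic counterpart of HPGDS, had r = -0.368 with the score.

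**Figure D4:**
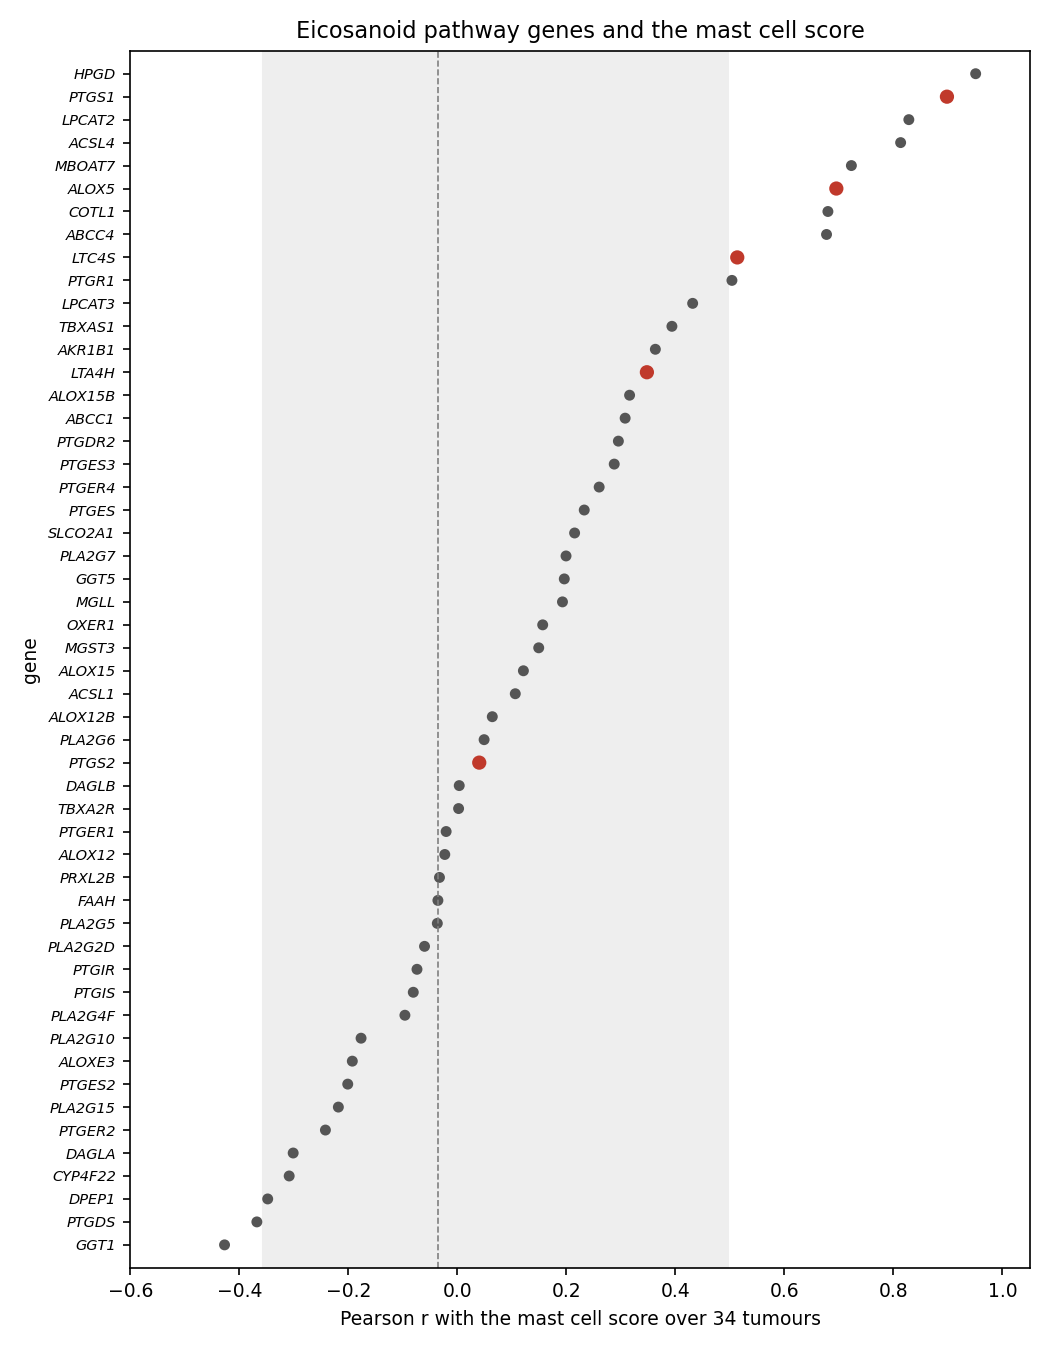
Pearson r with the mast cell score over 34 tumours (x axis) for each tested pathway gene (grey points, 1 gene per row of the y axis) and the 5 tested enzymes (red). The grey band runs from the 5th to the 95th percentile of all tested clusters (-0.357 to 0.496) and the dashed line their median (-0.036); HPGD and PTGS1 lie at the top, with PTGS2 inside the band.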

How the data were processed

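Total RNA of 34 tumours was hybridised to Affymetrix Canine Gene 1.1 ST arrays. The deposited values are log2 signals that the authors made by Robust Multichip Analysis (quantile normalisation and summarisation per Transcript cluster) in Affymetrix Expression Console 1.3 after leaving out outlier arrays. Quantile normalisation equalises arrays, so only changes relative to the rest of an array are measured. Such arrays carry no counts, and the number of tumours limits the precision. The genome build was not given in the sources used here, so no position or sequence is given. Symbols come from the platform annotation, where 16878 clusters have 1 symbol, 289 several and 15224 none.

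Groups came from the labels. The level filter (table median, 30% of a group) was applied, and limma 3.58.1 in R 4.3.3 was run on all passing clusters with Benjamini-Hochberg adjustment. It was checked on simulated data. Named were the 7 genes, the 3 most correlated single-symbol clusters of each, and up to 4 genes of each pathway list with the smallest p for M minus NM. The members and lists were chosen with earlier results of these data known. Alternatives were other filters, tests, weights, covariates and blocks, normalisation, and leaving out each tumour. The labels call the tumours of a group separate samples, 1 per dog.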

Additional observations from a re-analysis of the deposited data

Results flagged for a closer look

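In 7 of 35 sets of 4 to 10 tumours of 1 breed (or of the Labrador Retriever M MCTs), 1 tumour lay farther from the rest than expected of a single sample by Dixon's criterion, which chance alone meets in about 1 of 20 sets. NM replicate 12, a Labrador Retriever, stood apart from the other 9 Labrador Retrievers in ALOX5 (3.70, the next being 2.10), in PTGS1 (7.26, the next 5.36) and in the mast cell score (2.77, the next 0.823). HPGDS stood apart in the Labrador Retriever M MCTs (M replicate 16, 4.38, the next 1.73), in cross-breed dogs (NM replicate 6, 5.13, the next 2.09) and in Golden Retrievers (M replicate 7, 2.95, the next 1.54). LTA4H stood apart in Golden Retrievers in NM replicate 9 (2.39, the next 1.93). The sets are not independent, since they share tumours.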

How the results depend on the processing

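Of 127 results for the 5 tested enzymes under other settings, 116 kept their side of the adjusted threshold and, where they had one, their direction. The other 11 changed sign, none of them past the threshold. The breed results, 6 settings for each enzyme, have no direction and could be compared only by their side of the threshold. For M minus NM the changed signs were LTC4S -0.033 and PTGS2 0.0062 with array weights, ALOX5 -0.069, LTC4S -0.071, LTA4H -0.0011 and PTGS2 0.00055 with age, ALOX5 -0.013 and PTGS2 0.014 with sex, and LTC4S -0.18 and PTGS2 0.0078 with breed as a block. HPGD was 0.23 with breed as a block, 0.14 with the keratinocyte score and 0.067 with array quality, and ALOX5 in Labrador Retrievers minus other dogs was -0.051 with the mast cell score. At an unadjusted p, PTGS1 crossed 0.05 with the mast cell score for breed and for Labrador Retrievers. The cause of these changes was not tested.

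Counts at an unadjusted p moved with the filter: for M against NM, 1284 clusters without it and 417 at the 75th percentile, for breed 1880, for Labrador Retrievers 1356 and for the interaction 572 without it, where more or fewer clusters are tested. For Labrador Retrievers the count was 1299 with the mast cell score and 1203 with age. At an adjusted p, the breed count was 0 without the group covariate or with the mast cell score and 2 without the cross-breed dogs. ALOX15's adjusted p for breed was 0.0618 and 0.0529 in the first 2 of these.

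Leaving out 1 tumour at a time, M minus NM ranged from -0.047 to 0.14 (ALOX5), -0.10 to 0.18 (LTC4S), -0.028 to 0.043 (LTA4H), 0.11 to 0.51 (PTGS1), -0.046 to 0.012 (PTGS2) and -0.22 to 0.17 (HPGD). Labrador Retrievers minus other dogs ranged from -0.22 to 0.11 for ALOX5, and the difference of M minus NM between Labrador Retrievers and other dogs from -1.17 to 0.084 for LTC4S, -0.077 to 0.13 for LTA4H, -1.76 to 0.21 for PTGS1 and -0.16 to 0.083 for PTGS2. The counts for M against NM ranged from 652 to 998, for breed from 921 to 2199 (adjusted 0 without NM replicate 3 to 64 without NM replicate 16).

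The replicate numbers did not pair the tumours: 3 of 16 same-numbered pairs deviated together and no M tumour correlated best with its own number. With the replicate block, M minus NM was 0.03 for ALOX5, 0.11 for LTC4S, 0.04 for LTA4H, 0.38 for PTGS1 and -0.01 for PTGS2, with 0 clusters at an adjusted p and 548 at an unadjusted one. No gene had several clusters to average.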
